A study of Mus musculus with 3 samples.

Results

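Epidermal cells made up 373 of 19567 cells in 3 single-cell libraries of mouse embryo trunks: 49 of 6313 cells from E11.5 (E for embryonic day), 76 of 6140 from E12.5 and 248 of 7114 from E13.5. A cell was a barcode with at least 4000 UMIs (unique molecular identifiers, each standing for 1 captured transcript), at least 500 genes and at most 10% of its UMIs from mitochondrial genes. It counted as epidermal when it held at least 1 UMI of Trp63, at least 3 UMIs of Epcam, Perp, Krt5 and Krt15 together, and no UMI of Pdgfra or Elavl3. The cells were thus chosen by these measured UMI counts, and the levels of those genes in the epidermal cells are given as a description. The trunks, from vertebral level C3 to T2, were dissociated with TrypLE, strained and run with 10x Chromium 3′ chemistry. Each stage was 1 library from a pool of 3 littermates, and the labels name no strain, genotype, allele or treatment for any of them. With 1 library a stage no test between stages was possible, so every interval below is a 95% interval for counting error within these libraries.

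The epidermis grows from the surface ectoderm, a simple epithelium that carries the keratins Krt8 and Krt18. The transcription factor Trp63 commits these cells to the epidermal lineage and turns on the basal keratins Krt5 and Krt14, after which a flat outer layer, the periderm, covers the basal cells until shortly before birth. Basal cells then give rise to suprabasal cells, which switch to Krt1 and Krt10 and make secreted proteins such as Krtdap, and to hair placodes, which form under WNT and ectodysplasin signals.

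The libraries held between 94155624 and 113402193 UMIs, and the epidermal cells of a stage together held 785007, 1139021 and 4323065 UMIs across E11.5, E12.5 and E13.5. Their median cell had 13686, 12887.5 and 15333.5 UMIs in that order of stages, against 12496, 11040 and 10153 in the other cells. The number of cells set the precision, which was lowest at E11.5. Xist UMIs were found in 69.4%, 21.1% and 96.0% of the epidermal cells and in 66.0%, 27.3% and 95.3% of the other cells, so the sexes of the pooled embryos differed between libraries. Stage, litter, library and sex make-up cannot be told apart. Between 10 and 16 cell barcodes were shared by any pair of libraries, none of them between epidermal cells. Doublet calling marked 1, 1 and 12 of the epidermal cells across E11.5, E12.5 and E13.5. Levels are sums over the epidermal cells of a library, in which fewer cells with a gene and fewer transcripts per cell cannot be told apart, so the number of cells with a UMI is given beside the levels that matter.

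Near the limits of the rule, 13, 11 and 54 epidermal cells across E11.5, E12.5 and E13.5 held exactly 1 Trp63 UMI, and 0, 1 and 2 held exactly 3 UMIs of the epithelial sum. Just outside it, 16, 22 and 21 cells had Trp63 with none of the 4 epithelial genes, 39, 27 and 56 cells had the epithelial sum with no Trp63, and 4, 10 and 20 cells had both and were left out for Pdgfra or Elavl3. The median epidermal cell held 3, 4 and 3 Trp63 UMIs and an epithelial sum of 25, 48 and 44 UMIs, so most cells stood well inside the limit on the sum and near that on Trp63. The rule also took in cells with markers of another class: 0 of 49, 7 of 76 and 19 of 248. At E12.5 these were 6 cells with Pax1, 4 of them also past the minimum for neuron markers, and 1 cell with mesenchymal markers. At E13.5, 11 had mesenchymal, 4 erythroid, 3 muscle, 1 macrophage and 1 endothelial markers past a fixed minimum, some of them more than 1 kind. Calls past 2-fold that depend on these cells are given with and without them.

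As a share of all cells, epidermal cells were 0.776% of the E11.5 library (exact interval 0.575 to 1.02), 1.24% of the E12.5 library (0.976 to 1.55) and 3.49% of the E13.5 library (3.07 to 3.94). The share was higher at each later stage, and the 3 intervals do not touch except between E11.5 and E12.5. The order was the same when every cell was first thinned to 4000 UMIs, with 0.459%, 1.01% and 2.00% in stage order. The dissection, the strainer and the dissociation all act on such a share, and their part in it was not tested.

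Markers outside the rule were high in these cells. Krt14, the partner of Krt5 and no part of the rule, had 178 CPM (counts per 1000000, a gene's UMIs over all UMIs of the summed cells) in the epidermal cells and 0.306 CPM in the other cells at E11.5, 834 and 3.20 CPM by E12.5, and 1531 and 16.3 CPM by E13.5. Krt14 was thus 582-, 260- and 93.9-fold higher in the epidermal cells. Of the genes with a mean of at least 20 CPM over both groups, 6.76% in the E11.5 library, 5.76% in the E12.5 library and 5.47% in the E13.5 library were past 2-fold higher in the epidermal cells. After Krt14, the genes whose lowest bound was largest over the 3 libraries included Fermt1, Irx4, Esrp1, Mir205hg, Sfn, Gabrp, Pkp3, Cldn4, Wnt10a, Gjb2, Gjb6, Wnt3 and Cdh1. Fermt1 (kindlin-1, an activator of integrins in basal keratinocytes) had 155, 130 and 77.3 CPM in the epidermal cells and 0.722, 0.278 and 0.722 CPM in the others across E11.5, E12.5 and E13.5. Esrp1, which sets the epithelial pattern of splicing, had 80.3, 75.5 and 71.2 CPM in the epidermal cells against 0.558, 0.418 and 0.772 CPM. Both were near absent outside the epidermal cells at all 3 stages. Mir205hg, the host transcript of an epithelial microRNA, was 652-, 458- and 95.1-fold higher, Sfn (stratifin, a 14-3-3 protein) 87.3-, 159- and 54.7-fold, and Cdh1 (E-cadherin) 116-, 81.2- and 27.4-fold. The folds were lower at E13.5 than at E11.5 for most of them. The level in the other cells was higher at E13.5 for most but not all. Fermt1 had 0.722 CPM there at both of these stages, and Cldn4 had 2.19 CPM at E11.5 and 1.37 CPM at E13.5. Krt14 in droplets of 50 to 500 UMIs, which hold free RNA, stood at 1.91, 6.54 and 21.2 CPM in stage order. The part of free RNA in the lower folds was not tested.

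**Figure D1:**
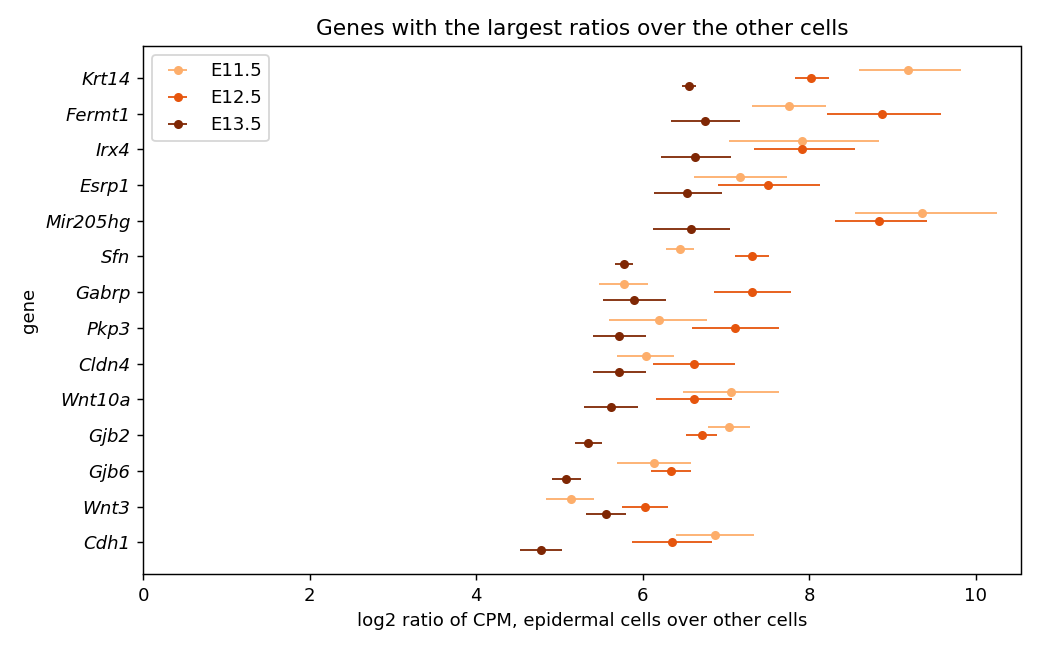
Log2 ratio of the epidermal cells over the other cells of the same library for 14 of the 15 genes with the largest lowest bound, with 1 point a stage and bars for the 95% counting interval. Every point lies far to the right of 0, from Mir205hg at 652-fold (E11.5) to Cdh1 at 27.4-fold (E13.5).

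The keratins showed the change of epithelium most plainly. Krt14 had 178 CPM (150 to 210) in the E11.5 cells, 834 CPM (782 to 889) in the E12.5 cells and 1531 CPM (1495 to 1569) in the E13.5 cells, with a UMI in 25 of 49, 63 of 76 and 245 of 248 cells. The basal keratin was therefore higher at each later stage, with log2 ratios of 2.23 (1.97 to 2.49) for E12.5 over E11.5 and 0.88 (0.78 to 0.98) for E13.5 over E12.5. Krt5 and Krt15, which helped to choose the cells, had 200, 735 and 661 CPM and 357, 1703 and 1327 CPM. Krt8 had 425, 224 and 11.8 CPM across E11.5, E12.5 and E13.5, in 37 of 49, 18 of 76 and 10 of 248 cells. Its partner Krt18 had 376, 241 and 14.3 CPM. Between E13.5 and E12.5 this pair was lower by 4.25 and 4.07 on the log2 scale, while Krt14 was higher. The size of this drop rests in part on the 6 cells with Pax1, which held 62.4% of the Krt8 and 69.8% of the Krt18 UMIs at E12.5. Without the cells that held another class's markers, Krt8 had 93.8 CPM at E12.5 and 12.6 CPM at E13.5. Krt18 then had 81.1 and 14.7 CPM. Krt19 (87.9, 79.9 and 19.4 CPM) and Krt7 (86.6, 68.5 and 27.5 CPM), keratins of simple epithelia and periderm, were also lower at E13.5 than at E12.5, by 2.04 and 1.31 in log2. Krt17, an early keratin of periderm and placodes, ran the other way with 10.2, 60.6 and 136 CPM, in 6, 16 and 104 cells. Much of it lay in few cells: 65.2% of the 69 Krt17 UMIs at E12.5 were in the 5 cells with at least 5 UMIs of the periderm gene Gabrp, and 1 cell held 228 of the 587 at E13.5.

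**Figure D2:**
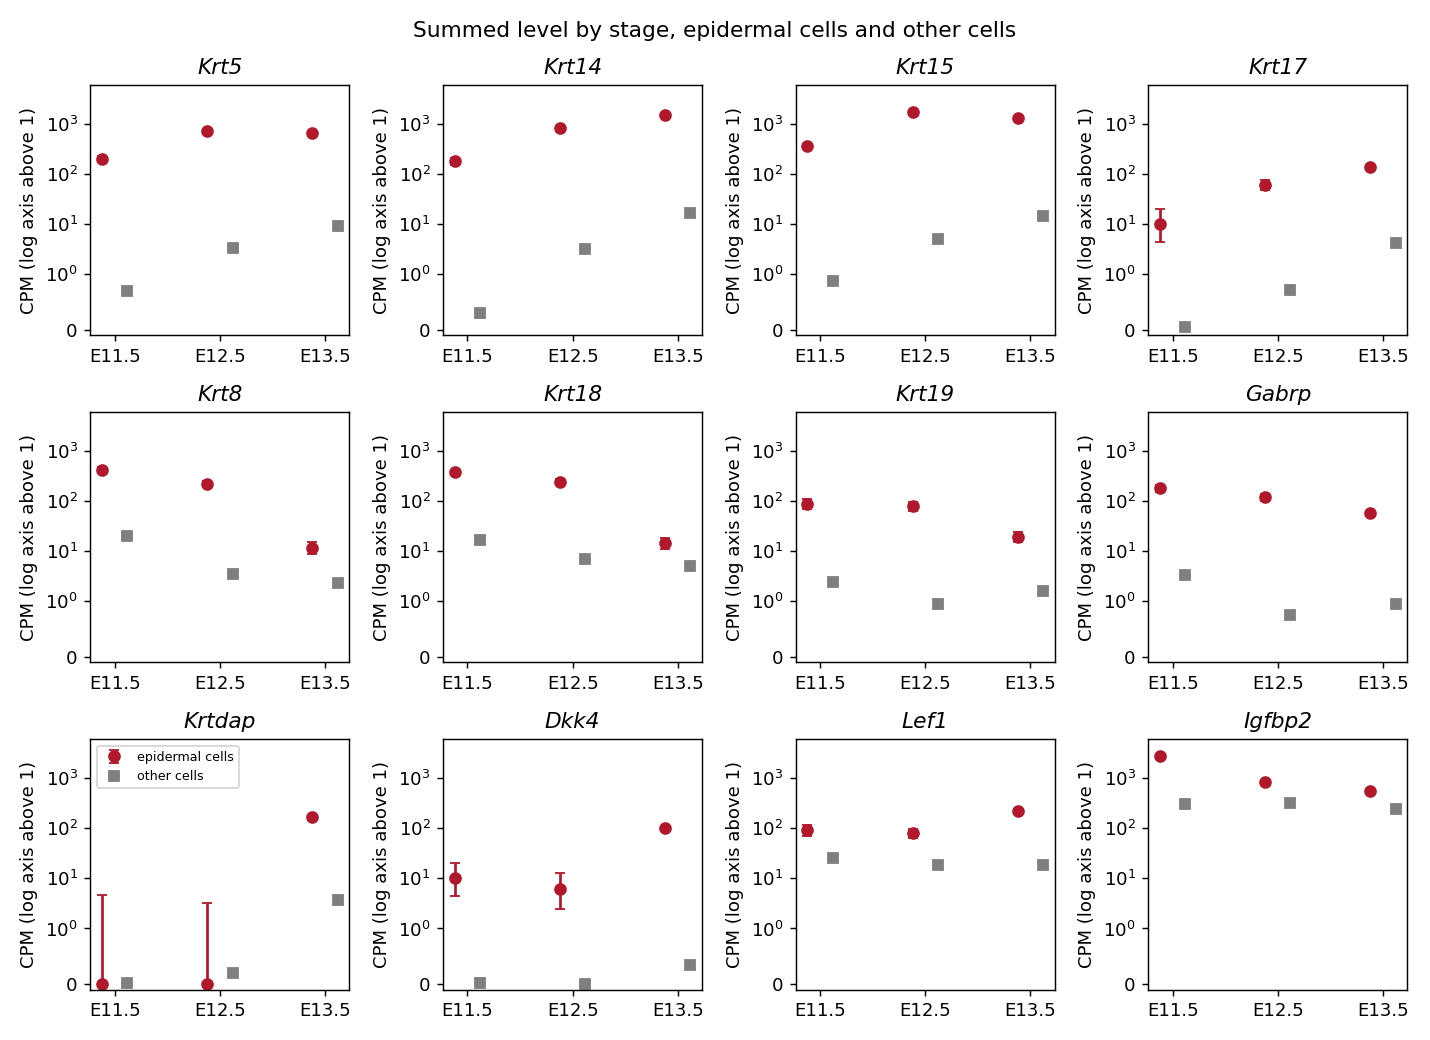
Level in CPM, on an axis that is linear near 0 and logarithmic above, of 12 genes in the epidermal cells (circles, with 95% counting bars) and in the other cells of the library (grey squares) across E11.5, E12.5 and E13.5. Krt14 is highest at E13.5 (1531 CPM), where Krt8 is lowest (11.8 CPM), and Krtdap, Dkk4 and Lef1 are highest at E13.5.

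Across all genes, those measured in a pair of stages were the ones with a mean of at least 20 CPM over both, and past 2-fold means a log2 ratio of at least 1 in size. For E12.5 over E11.5, 176 of 5987 genes (2.94%) were higher and 194 (3.24%) lower past 2-fold in the epidermal cells. For E13.5 over E12.5, 77 of 5745 (1.34%) were higher and 147 (2.56%) lower, and with median-of-ratios scaling 121 were higher and 99 lower. That scaling put the median of all genes at 0.09 in place of −0.05 in log2 for E13.5 over E12.5, so the balance between higher and lower genes in this pair depends on the scaling. The median of all genes was −0.03 for E12.5 over E11.5 and −0.05 for E13.5 over E12.5. Of the 3 basal keratins, Krt5 and Krt15 served to choose the cells, so no count or median of that list is read here. Krt14, which did not, was past 2-fold higher at E12.5 than at E11.5 and not at E13.5 over E12.5. Of 10 early and periderm keratins, 5 were measured in each pair: at E12.5 over E11.5 Krt17 was higher and none lower (median −0.34), and at E13.5 over E12.5 Krt17 was higher and the other 4 lower (median −2.04). Without the deepest cell of each library Krt7 was no longer past 2-fold in this pair, and with the free RNA of summed haemoglobin subtracted it was not either.

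**Figure D3:**
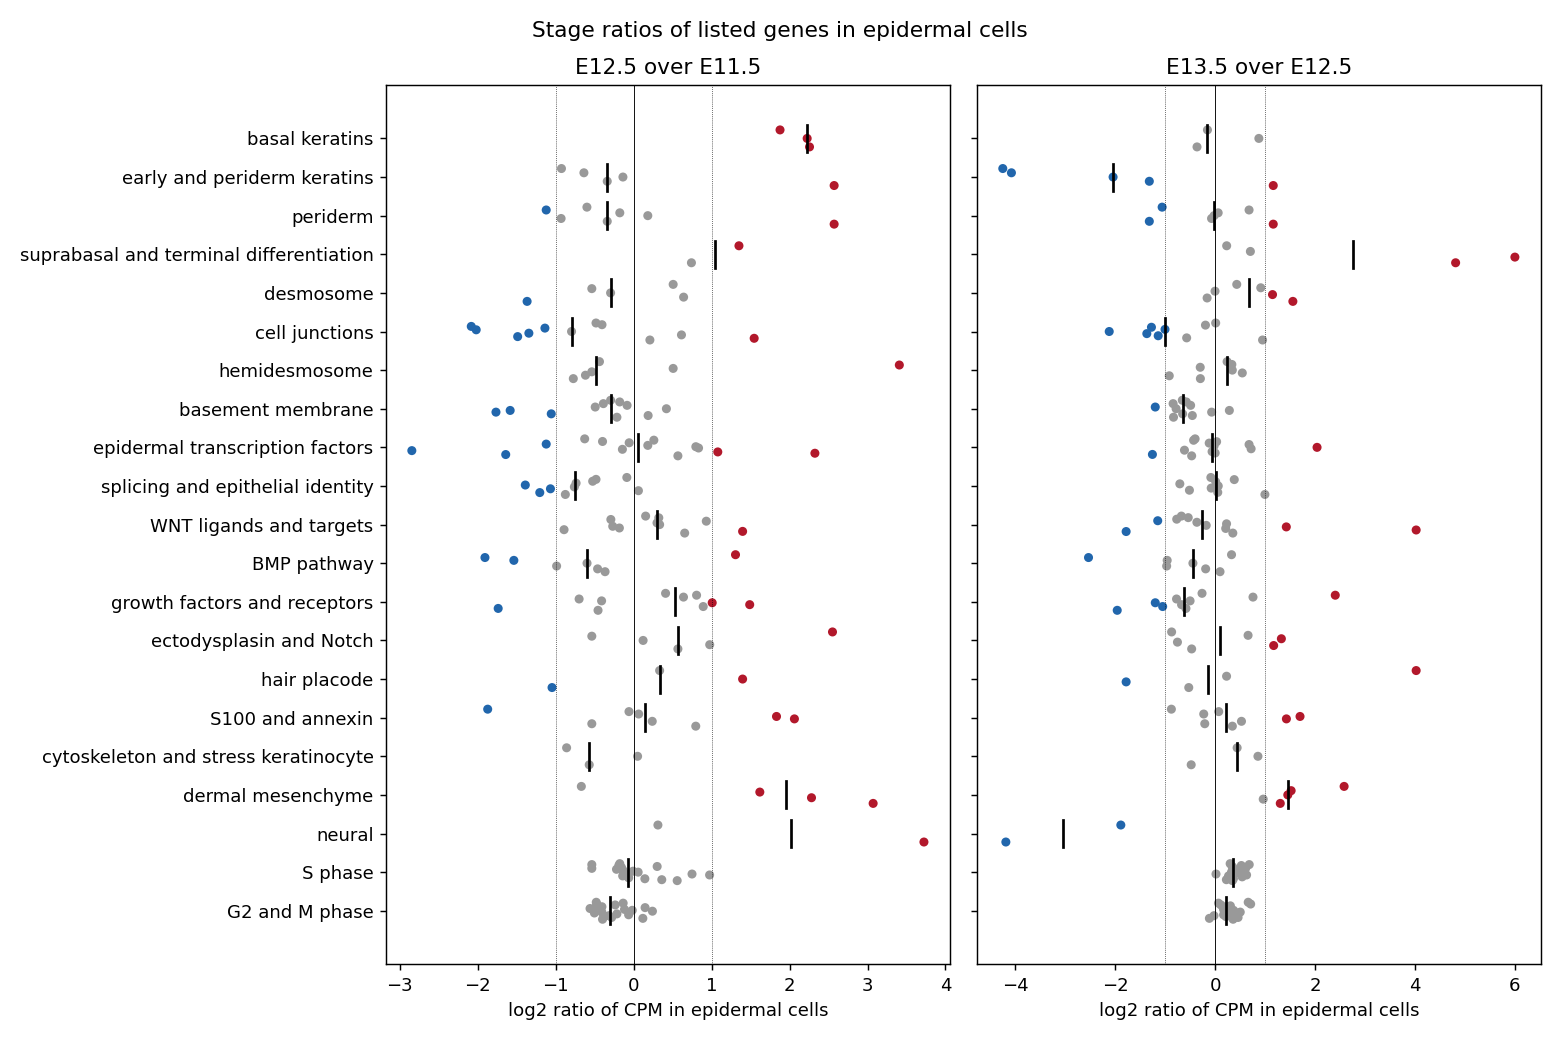
Log2 ratio between stages in the epidermal cells for each measured gene of the lists shown, E12.5 over E11.5 in 1 panel and E13.5 over E12.5 in the other. Red and blue points are past 2-fold higher and lower, ticks are list medians, and Krtdap and Dmkn, the points farthest right for E13.5 over E12.5, stand at their bounds.

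Summed levels hid how the simple keratins were spread over cells. Cells with at least 5 Gabrp UMIs, at least 2 Krtdap UMIs, at least 2 Dkk4 UMIs or at least 2 Pax1 UMIs were set apart, with these limits chosen after the values were seen, which left 41, 64 and 199 remaining epidermal cells across E11.5, E12.5 and E13.5. In the remaining cells Krt8 had 279 CPM at E11.5 in 30 of 41 cells, 11.03 CPM by E12.5 in 6 of 64 and 1.86 CPM by E13.5 in 5 of 199. Most remaining cells thus carried Krt8 at E11.5 and few did at E12.5, with a log2 ratio of −4.66 (−5.75 to −3.74) where all epidermal cells gave −0.93. Of the 255 Krt8 UMIs at E12.5, 62.4% were in the 6 Pax1 cells, 29.8% in the 5 Gabrp-high cells and 3.92% in the 64 remaining ones. At E11.5 the remaining cells held 167 of 334 Krt8 UMIs. Krt18 in the remaining cells had 244, 22.1 and 8.36 CPM, Krt19 had 103, 12.1 and 4.64 CPM, and Krt7 had 100, 17.6 and 8.98 CPM. All 4 simple keratins were lower in the remaining cells at E12.5 than at E11.5, by 2.50 to 4.66 in log2. At E11.5, 7 of the remaining cells stood just under the Gabrp limit with 2 to 4 UMIs and held 86 of the 167 Krt8 UMIs. Without such cells Krt8 had 165 CPM at E11.5 and 11.2 CPM at E12.5, a log2 ratio of −3.88 (−4.99 to −2.93), and Krt18, Krt19 and Krt7 gave −2.63, −3.10 and −2.18. Krt17 did not follow the other keratins: in the remaining cells it had 11.7, 15.4 and 44.3 CPM, with log2 ratios of 0.40 (−1.0 to 1.95) and 1.52 (0.73 to 2.43). Krt14 in the same cells had 212, 1007 and 1708 CPM, in 23 of 41, 57 of 64 and 199 of 199 cells. When each cell was thinned to 4000 UMIs, Krt14 was seen in 34.7%, 75.0% and 96.8% of all epidermal cells (51.0%, 82.9% and 98.8% before thinning) and Krt8 in 55.1%, 18.4% and 1.61% (75.5%, 23.7% and 4.03%). Erythroid cells, which should lack both and had medians of 25859, 19321 and 13604 UMIs, gave thinned shares of 0%, 0% and 1.61% for Krt14 and 0% at all 3 stages for Krt8. The Krt14 shares of the epidermal cells thus stood far above this background, and the Krt8 share at E13.5 rests on few UMIs.

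**Figure D4:**
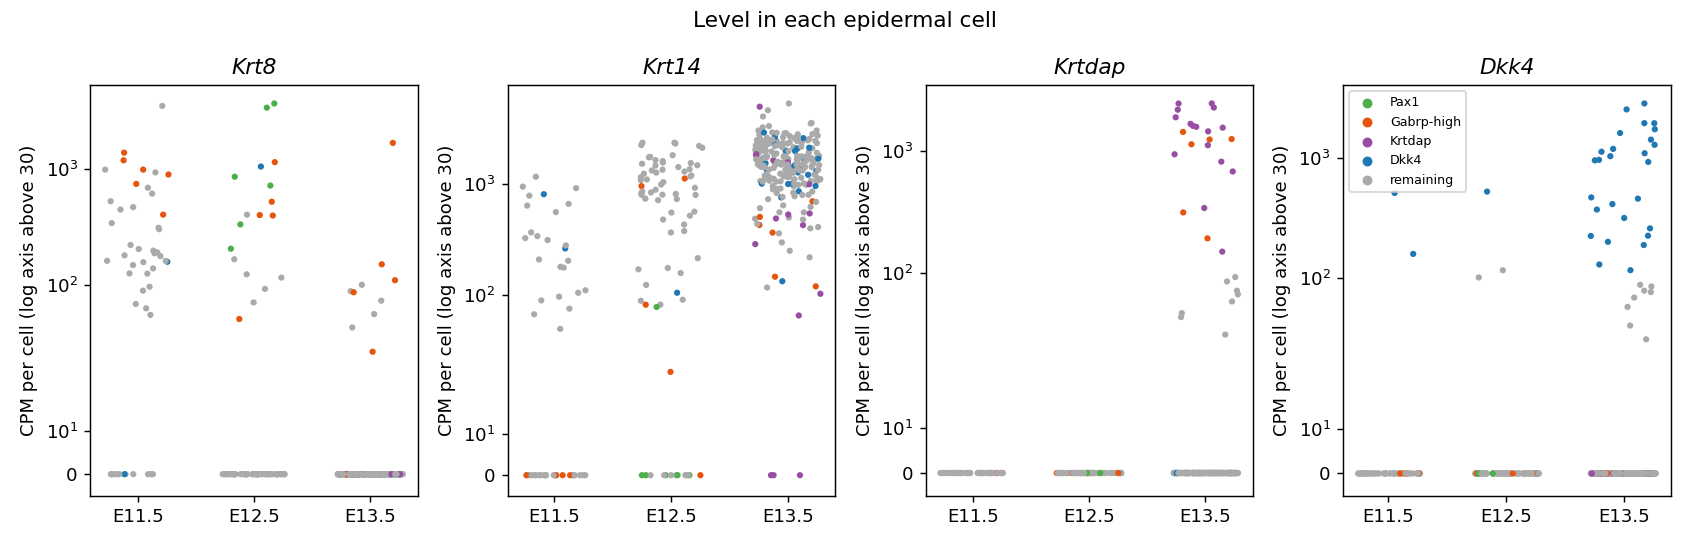
CPM in each epidermal cell for Krt8, Krt14, Krtdap and Dkk4 across E11.5, E12.5 and E13.5, coloured by the set the cell falls in. Krt8 at E12.5 lies mainly in the 6 Pax1 cells and the 5 Gabrp-high cells, and Krtdap and Dkk4 at E13.5 lie in separate cells.

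Gabrp, a GABA receptor subunit enriched in periderm, was held by few cells at each stage. It had 180, 119 and 56.9 CPM across E11.5, E12.5 and E13.5, in 13 of 49, 7 of 76 and 17 of 248 cells. The 39, 27 and 56 cells with the epithelial sum but no Trp63, outside the rule, had more Gabrp, at 289, 179 and 99.9 CPM. Their Krt8 stood at 704, 329 and 65.1 CPM. The counts and shares of Gabrp-high cells below hold inside the rule only. The Gabrp-high cells numbered 6 (12.2% of epidermal cells), 5 (6.58%) and 6 (2.42%), and held 84.4%, 97.8% and 93.5% of the Gabrp UMIs. At E12.5 these cells were set apart by simple keratins and genes of covering epithelia. Krt19 had 615 CPM in the Gabrp-high cells against 12.1 CPM in the remaining ones, Krt7 476 against 17.6, Krt17 346 against 15.4, the uroplakin Upk1b 346 against 3.31, and the tight junction gene Cldn3 461 against 3.31. The heat shock protein Hspb1 had 2581 against 147 CPM and annexin Anxa1 638 against 22.1 CPM. The deepest of the 5 cells held most of several of these, with 61 of the 80 Krt19 UMIs, 49 of the 62 of Krt7, 39 of the 45 of Upk1b, 26 of the 45 of Krt17 and 194 of the 336 of Hspb1. In the other 4 cells Krt19 had 235 CPM, Krt7 161, Krt17 235, Upk1b 74.2, Cldn3 383, Hspb1 1756 and Anxa1 532 CPM. These levels were lower than with the deepest cell and still above those of the remaining cells, Upk1b on 6 UMIs. Basal genes were lower in the 5 Gabrp-high cells, with Krt14 at 269 against 1007 CPM and the hemidesmosome collagen Col17a1 at 0 against 84.9 CPM. Trp63, which helped to choose the cells, was at 61.5 against 320 CPM, given as a description.

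The Gabrp-high cells were not alike at the 3 stages. At E11.5 they had 1044 CPM of Krt8 against 279 in the remaining cells, 0 against 212 of Krt14, and 1719 against 205 of Tac2, the precursor of neurokinin B. Dlk1, an imprinted Notch-like membrane protein, had 860 against 58.4 CPM there. Krt19 and Krt7, high in these cells at E12.5, had 44.6 and 50.9 CPM at E11.5, below the 103 and 100 CPM of the remaining cells. Tac2 over all epidermal cells had 501, 32.5 and 0 CPM, in 10, 3 and 0 cells, and at E12.5 all of its 37 UMIs were in Gabrp-high cells. At E13.5 the 6 Gabrp-high cells were large, with a median of 52473.5 UMIs, and Krt8 had 128 against 1.86 CPM, Krt17 862 against 44.3 CPM and the glucose transporter Slc2a3 1175 against 26.0 CPM. They also held the suprabasal gene Krtdap at 715 against 2.48 CPM and the cornified envelope gene Ppl (periplakin) at 440 against 7.12 CPM, in all 6 and in 5 of the 6 cells. The ratios rest on 5 or 6 cells a stage, and the deepest of them alone held 53195, 49292 and 140335 UMIs. Without the deepest cell Dlk1 at E11.5 had 501 CPM, and at E13.5 Krt17 had 358, Slc2a3 405 and Ppl 170 CPM, while Krtdap had 1061 CPM.

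Of the 10 periderm genes, 7 were measured in each pair. At E12.5 over E11.5 Krt17 was higher and Grhl3, a transcription factor of the outer layer, lower past 2-fold (median −0.34). At E13.5 over E12.5 Krt17 was higher and Gabrp and Krt7 lower (median −0.02). Without the cells that held another class's markers Grhl3 was not past 2-fold, at −0.97. Grhl3 had 45.9, 21.1 and 33.8 CPM and Sfn 653, 578 and 603 CPM. Gabrp just passed at −1.06 (−1.37 to −0.74). In the cells left without the Gabrp-high, Krtdap and Dkk4 sets its ratio was 0.53, but those left out were chosen for Gabrp and held most of its UMIs. The remaining cells held 3 Gabrp UMIs at E12.5 and 14 at E13.5, with an interval of −1.45 to 2.83, so no change can be read there.

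Of the suprabasal genes, Krtdap and Dmkn were seen at E13.5 alone, while Krt1 and Krt10 had UMIs at all 3 stages. Krtdap (keratinocyte differentiation-associated protein) had 0, 0 and 168 CPM across E11.5, E12.5 and E13.5, and 30 of 248 cells held its 728 UMIs at E13.5. Krtdap stood at 232 CPM in the 56 cells left out of the rule at E13.5 for lack of Trp63. Dmkn (dermokine), its neighbour and like it a secreted protein of suprabasal cells, had 0, 0 and 74.0 CPM, in 26 cells. Neither gene had a UMI in any epidermal cell of the earlier stages, which, taking 3 cells as the most that a count of 0 allows, leaves room for a share of up to 6.12% at E11.5 and 3.95% at E12.5. Set against a floor of 3 UMIs over the E12.5 cells, the E13.5 level was higher by at least 6.0 in log2 for Krtdap and 4.81 for Dmkn. Krt1 had 12.7, 32.5 and 38.2 CPM and Krt10 51.0, 85.2 and 139 CPM. Krt10 stood at 45.4, 53.0 and 46.1 CPM in the other cells and at 54.3, 61.6 and 50.5 CPM in droplets of 50 to 500 UMIs, so only its E13.5 level was well above those of other cells. Of 15 suprabasal and terminal genes, 2 were measured at E12.5 over E11.5 with Krt1 higher past 2-fold (median 1.05), and 4 at E13.5 over E12.5 with Krtdap and Dmkn higher (median 2.76, with both at their bound). Without the Gabrp-high, Krtdap and Dkk4 sets the E13.5 over E12.5 median was −0.64, over fewer genes. Leaving out cells chosen for Krtdap left 8 Krtdap and 9 Dmkn UMIs at E13.5 (2.48 and 2.79 CPM), under the limit of 20 CPM. That median therefore leaves out Krtdap and Dmkn and cannot be set beside 2.76.

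The 250 bases before the start site are shown for 4 genes. Krtdap and Dmkn were seen in the epidermal cells at E13.5 alone, and Krt8 was lower at E12.5 than at E11.5. Krt5 helped to choose the cells and is shown as a basal keratin, without a reading of its stage levels. The sequences are RefSeq promoters of build GRCm38.p6, an older build than the GRCm39 of the counts, printed along the coding strand. Capitals mark TATAAA (the TATA box), the AP-1 match TGANTCA and CTTTGAT (a match for TCF and LEF, here on the opposite strand as ATCAAAG), and GCCNNNGGC (AP-2) was searched too, on both strands with overlaps allowed.
Krtdap, chr7:30787655-30787904, plus strand: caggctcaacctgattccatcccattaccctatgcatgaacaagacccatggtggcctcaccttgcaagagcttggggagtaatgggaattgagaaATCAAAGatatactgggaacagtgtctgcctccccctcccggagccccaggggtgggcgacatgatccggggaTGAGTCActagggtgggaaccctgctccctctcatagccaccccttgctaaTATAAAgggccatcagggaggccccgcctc
Dmkn, chr7:30763506-30763755, plus strand: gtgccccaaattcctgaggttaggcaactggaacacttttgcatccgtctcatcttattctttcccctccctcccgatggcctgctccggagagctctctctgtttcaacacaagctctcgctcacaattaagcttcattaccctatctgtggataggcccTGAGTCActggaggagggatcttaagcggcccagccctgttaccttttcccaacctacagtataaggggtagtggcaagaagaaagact
Krt5, chr15:101712906-101713155, minus strand: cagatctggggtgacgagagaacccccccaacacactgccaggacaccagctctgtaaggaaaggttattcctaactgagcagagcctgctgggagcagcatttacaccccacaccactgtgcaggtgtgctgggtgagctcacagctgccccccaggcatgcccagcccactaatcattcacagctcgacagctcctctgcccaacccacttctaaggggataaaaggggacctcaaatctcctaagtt
Krt8, chr15:102004343-102004592, minus strand: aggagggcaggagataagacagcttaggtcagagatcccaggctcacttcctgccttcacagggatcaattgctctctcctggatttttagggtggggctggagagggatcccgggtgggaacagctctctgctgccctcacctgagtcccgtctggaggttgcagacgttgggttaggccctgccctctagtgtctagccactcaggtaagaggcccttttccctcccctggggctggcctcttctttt
The Krtdap window held TATAAA with its start 30 bases before the gene's, TGAGTCA at 81 and the ATCAAAG match at 154. The Dmkn window printed held TGAGTCA at 89 bases. The table lists 2 more Dmkn starts, and their windows held the same match at 91 and 82 bases. The Krt5 and Krt8 windows held none of the 4 motifs. Of 32851 promoters of this length, 12.4% held TATAAA, 13.7% GCCNNNGGC, 6.75% TGANTCA and 3.21% CTTTGAT. A match is a description of letters, and 230 of the 334 listed genes had a promoter in the table.

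The 16 cells with at least 2 Krtdap UMIs that were not Gabrp-high (6.45% of the E13.5 epidermal cells; 8 more cells held 1 UMI) differed from the remaining cells in other genes as well. Against the 199 remaining cells they had 619 and 2.79 CPM of Dmkn, 625 and 61.0 CPM of Krt10, 130 and 20.1 CPM of Krt1, and 76.9 and 0.929 CPM of Tgm1, the transglutaminase that cross-links the cornified envelope. Notch1, a receptor that acts in the step from basal to suprabasal cell, had 458 and 99.7 CPM, its target Nrarp 187 and 17.3 CPM, and the small GTPase Rhov 104 and 2.17 CPM. Mgst1 had 1779 and 42.4 CPM, Hspb1 3529 and 129 CPM and the desmosomal cadherin Dsg3 63.6 and 2.79 CPM. Basal genes were lower: Krt14 had 786 and 1708 CPM, Itga6 16.7 and 89.5 CPM and Col17a1 6.69 and 65.6 CPM. Of the genes that helped to choose the cells, Krt15 had 171 and 1654 CPM and Krt5 602 and 623 CPM, given as a description. Krt8 had no UMI in these 16 cells. Wnt6 (13.4 and 327 CPM), Lef1 (6.69 and 238 CPM), Sostdc1 (13.4 and 247 CPM) and the chemokine Cxcl14 (20.1 and 2251 CPM) were all lower in the Krtdap cells. Proliferation genes stood close, with Mki67 at 114 and 120 CPM (log2 ratio −0.08, −0.63 to 0.43) and Top2a at 271 and 331 CPM (−0.29, −0.63 to 0.04). The cells were chosen for Krtdap, so that gene's own ratio is no result, and the other genes were picked with these values known.

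**Figure D5:**
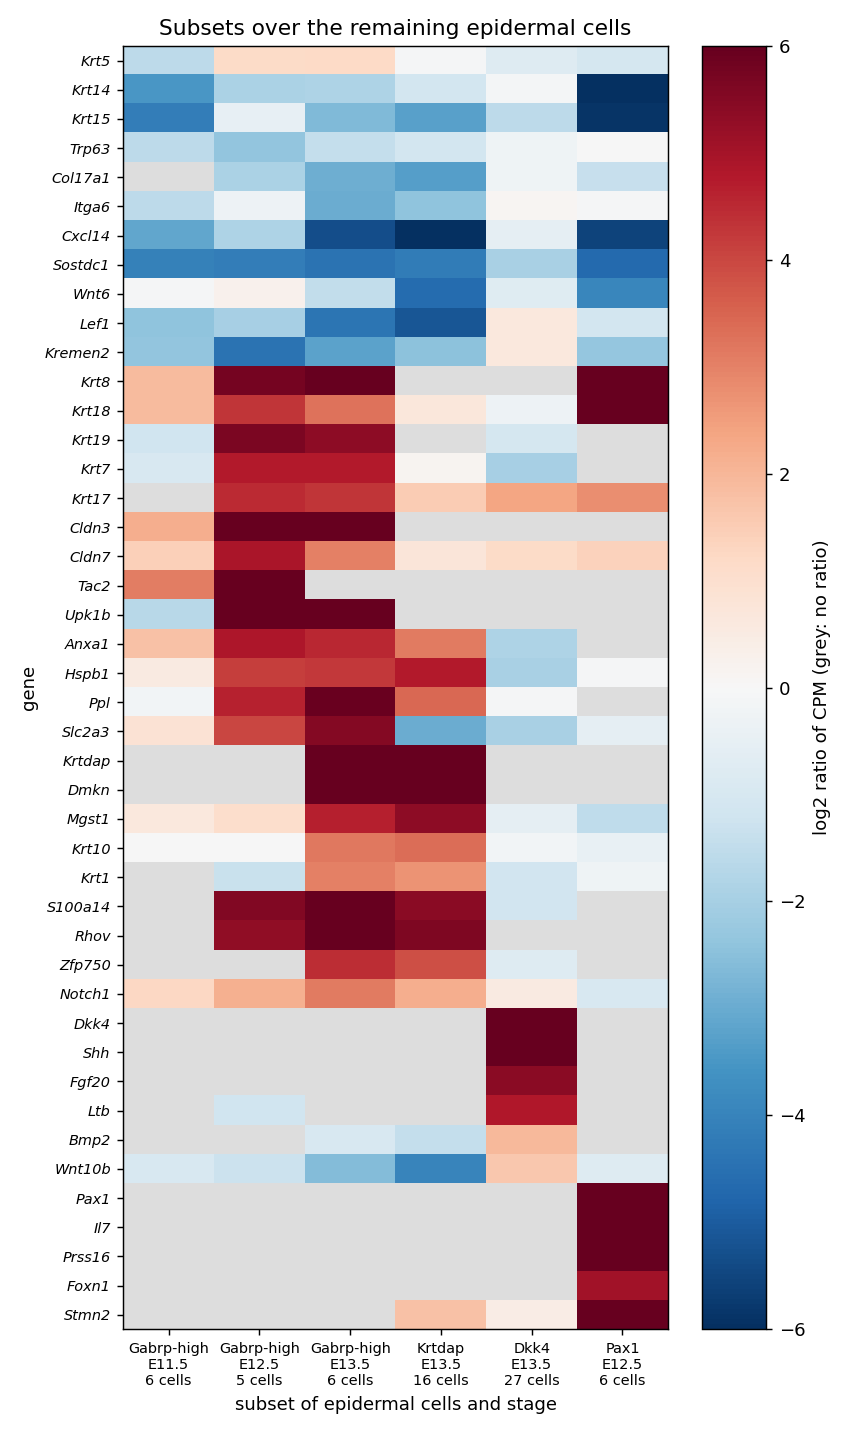
Log2 ratio of each set of epidermal cells over the remaining epidermal cells of its stage, clipped at 6 in size, for marker genes in rows. Grey marks a ratio on under 8 UMIs or that could not be formed, and a gene at 0 on 1 side is drawn at its bound. The Krtdap cells at E13.5 are high for Dmkn, Krt10 and Krt1 and low for Lef1, Col17a1 and the rule gene Krt15. The Pax1 cells at E12.5 are low for the basal keratin Krt14 and the rule gene Krt15.

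Desmosome genes differed between stages in different directions. Dsp (desmoplakin, which ties keratin to the desmosome) had 125, 177 and 240 CPM across E11.5, E12.5 and E13.5, and Jup (plakoglobin) 115, 79.0 and 149 CPM. The plakophilins Pkp3 and Pkp1 had 53.5, 83.4 and 74.7 CPM and 0, 16.7 and 37.0 CPM, Pkp1 in 0, 14 and 59 cells, and the plakin Ppl had 40.8, 15.8 and 46.5 CPM. Of 11 desmosome genes, 5 were measured at E12.5 over E11.5 with Ppl lower (median −0.30), and 6 at E13.5 over E12.5 with Pkp1 and Ppl higher (median 0.67). Of the 201 Ppl UMIs at E13.5, 77.1% were in the 6 Gabrp-high cells. Without the deepest cell of each library neither Pkp1 nor Ppl was past 2-fold at E13.5 over E12.5.

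Several tight junction genes were lower at later stages. The claudins Cldn3 (234, 55.3 and 22.9 CPM), Cldn6 (168, 76.4 and 38.2 CPM) and Cldn7 (313, 77.3 and 17.8 CPM) were past 2-fold lower in both pairs of stages, Cldn6 at −1.0 just inside for E13.5 over E12.5 and outside without the deepest cells. Cldn4, with 144, 75.5 and 71.9 CPM, was not past 2-fold in either pair, at −0.93 and −0.07. In the remaining cells Cldn3 had 140 CPM at E11.5 and 3.31 CPM at E12.5, in 16 of 41 and 2 of 64 cells, and Cldn7 237, 16.5 and 10.2 CPM. The Gabrp-high cells held 60 Cldn3 UMIs at E12.5 and 92 at E13.5, against 3 and 3 in the remaining cells, too few for a ratio (interval −4.73 to 1.07). Cldn7 in the remaining cells was at −0.70 (−1.62 to 0.29) for E13.5 over E12.5. In this pair Cldn3 was also not past 2-fold with a 5% mitochondrial maximum or with free RNA of summed haemoglobin subtracted. F11r, an adhesion molecule of tight junctions, had 116, 66.7 and 25.9 CPM and the junction protein Cgn (cingulin) 35.7, 14.05 and 10.4 CPM. Adherens cadherins moved less: Cdh1 had 101, 72.0 and 72.6 CPM and Cdh3 148, 111 and 97.6 CPM. The gap junction genes split. Gjb6 had 91.7, 268 and 181 CPM, Gjb2 343, 524 and 238 CPM, and Gja1 90.4, 104 and 202 CPM. Of 16 junction genes, 11 were measured at E12.5 over E11.5 with Gjb6 higher and 5 lower (median −0.80), and 9 at E13.5 over E12.5 with none higher and 5 lower (median −1.0). The medians in the other cells were −0.13 and 0.43.

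Hemidesmosomes tie basal cells to the basement membrane, and Col17a1, their transmembrane collagen, had 6.37, 67.6 and 55.1 CPM, in 3 of 49, 36 of 76 and 125 of 248 cells. Its log2 ratio was 3.41 (2.12 to 5.07) for E12.5 over E11.5 and −0.30 (−0.67 to 0.09) for E13.5 over E12.5. The gene was thus near its E13.5 level by E12.5. Itga6, the integrin alpha chain of the hemidesmosome, had 90.4, 66.7 and 78.9 CPM, its partner Itgb4 10.2, 21.1 and 26.6 CPM and the tetraspanin Cd151 116, 75.5 and 40.0 CPM. Of 8 hemidesmosome genes, 6 were measured at E12.5 over E11.5 with Col17a1 higher (median −0.49), and 7 at E13.5 over E12.5 with none past 2-fold (median 0.24). Of 22 basement membrane genes, 11 were measured in each pair: Col18a1, Hspg2 and Npnt were lower at E12.5 than at E11.5 (median −0.30) and Col4a2 was lower at E13.5 than at E12.5 (median −0.65). Hspg2 (perlecan) had 86.6, 25.5 and 24.3 CPM in the epidermal cells against 20.5, 27.7 and 51.7 CPM in the other cells. Npnt (nephronectin) had 139, 66.7 and 42.6 CPM, and the laminin chain Lama5 42.0, 34.2 and 21.7 CPM.

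Of the 28 epidermal transcription factors only 14 and 13 were measured in the 2 pairs, and most of those were within 2-fold in each pair. At E12.5 over E11.5 a larger share of them was past 2-fold than of all genes, of which 2.94% were higher and 3.24% lower. Grhl2 had 42.0, 40.4 and 37.2 CPM and Gata3 81.5, 73.7 and 70.8 CPM. Tfap2a (145, 93.9 and 71.2 CPM) and Tfap2b (251, 300 and 223 CPM), AP-2 factors of the surface ectoderm, were within 2-fold in each pair. Msx2, a homeobox target of BMP signals, had 139, 19.3 and 6.94 CPM, in 32, 15 and 23 cells, with a log2 ratio of −2.85 (−3.58 to −2.18) for E12.5 over E11.5. The T-box repressor Tbx3 had 54.8, 17.6 and 10.6 CPM. Msx2 and Tbx3 were thus lower at E12.5 than at E11.5, and Msx2 was also lower in the other cells, by 2.72. The homeobox gene Barx2 had 33.1, 166 and 69.6 CPM, with log2 ratios of 2.32 (1.73 to 2.98) and −1.25 (−1.52 to −0.98), and the chromatin organiser Satb1 58.6, 124 and 124 CPM. Klf4, a factor of barrier formation, had 16.6, 11.4 and 47.0 CPM, and Zfp750, a factor of terminal differentiation, 0, 6.15 and 27.5 CPM. Zfp750 had 165 CPM in the Gabrp-high cells and 114 CPM in the Krtdap cells at E13.5, against 7.74 CPM in the remaining ones. Of 28 factors, 14 were measured at E12.5 over E11.5 with Barx2 and Satb1 higher and Msx2, Tbx3 and Grhl3 lower (median 0.06), and 13 at E13.5 over E12.5 with Klf4 higher and Barx2 lower (median −0.06). Of 12 genes of epithelial splicing and identity, 10 were measured at E12.5 over E11.5 with the protease inhibitor Spint1, the protease Prss8 and the GTPase Rab25 lower (median −0.75; Prss8 at −1.07, and −0.995 without the cells that held another class's markers), and 9 at E13.5 over E12.5 with none past 2-fold (median 0.01). Epcam, a rule gene, had 995, 691 and 424 CPM.

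WNT ligands were made by the epidermal cells at all 3 stages. Wnt6 had 573, 468 and 275 CPM, against 6.58, 12.9 and 12.7 CPM in the other cells. Wnt4 had 418, 522 and 360 CPM against 51.1, 36.4 and 34.0 CPM, and Wnt3 168, 187 and 117 CPM against 4.79, 2.86 and 2.49 CPM. All 3 were higher in the epidermal cells than in the others, and the cells also had Wnt10a (71.3, 87.8 and 68.2 CPM) and Wnt10b (36.9, 46.5 and 54.6 CPM). Wnt7b had 54.8, 104 and 47.2 CPM and was past 2-fold lower at E13.5 than at E12.5, at −1.15. Lef1, the transcription factor that reads WNT signals, had 91.7, 80.8 and 217 CPM, in 27 of 49, 46 of 76 and 202 of 248 cells, with a log2 ratio of 1.43 (1.12 to 1.75) for E13.5 over E12.5 and 0.03 in the other cells. In the remaining cells, without the Dkk4 set, the same ratio was 1.36 (1.04 to 1.70). Sostdc1, a secreted inhibitor of BMP and WNT, had 251, 661 and 193 CPM, with log2 ratios of 1.40 (1.17 to 1.63) and −1.78 (−1.92 to −1.63). Axin2, a common WNT target, had 40.8, 21.9 and 25.4 CPM. Of 20 WNT genes, 11 were measured at E12.5 over E11.5 with Sostdc1 higher (median 0.30), and 12 at E13.5 over E12.5 with Dkk4 and Lef1 higher and Sostdc1 and Wnt7b lower (median −0.27).

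Dkk4, a WNT inhibitor that marks early hair placodes, had 10.2, 6.15 and 99.9 CPM, in 2 of 49, 3 of 76 and 35 of 248 cells, with a log2 ratio of 4.02 (2.97 to 5.35) for E13.5 over E12.5. Thinned to 4000 UMIs it was seen in 2.04%, 2.63% and 9.68% of cells, and before thinning in 4.08%, 3.95% and 14.1%, against 0.538% of erythroid cells at E13.5. Cells with at least 2 Dkk4 UMIs numbered 2, 1 and 27, with 8 more at 1 UMI at E13.5. The 27 cells at E13.5 carried several other placode genes, and the genes given here were picked with these values known. Shh had 33 UMIs in 11 of the 27 cells and none in the 199 remaining ones, Fgf20 had 79.1 against 1.86 CPM, the ectodysplasin receptor Edar 27.1 against 2.79 CPM, and the cytokine Ltb 206 against 7.43 CPM. Dusp6, a target of FGF signals, had 194 against 17.3 CPM. Bmp2 had 106 against 27.3 CPM, Wnt10b 156 against 51.4 CPM, Sox4 640 against 288 CPM and Lef1 369 against 238 CPM. Sostdc1, which is also on the hair placode list, was lower (63.3 against 247 CPM), and Krt14 was close, at 1589 against 1708 CPM. Krt15, which helped to choose the cells, had 565 against 1654 CPM, given as a description. Neither Krtdap nor Krt8 had a UMI in these 27 cells, and no epidermal cell at E13.5 held a UMI of both Dkk4 and Krtdap. Pthlh, the parathyroid hormone-related protein, had 45.2 against 5.88 CPM there. In the 2 Dkk4 cells at E11.5 Pthlh had 277 CPM and Tbx3 519 CPM, against 23.4 and 36.7 CPM in the remaining cells, while Shh had no UMI and Fgf20 had 1. Of 10 hair placode genes, 3 were measured at E12.5 over E11.5 with Sostdc1 higher and Ctnnal1 lower (median 0.33), and 4 at E13.5 over E12.5 with Dkk4 higher and Sostdc1 lower (median −0.15). Ctnnal1, an alpha-catenin relative, had 59.9, 29.0 and 20.1 CPM, and its ratio of −1.05 was −0.89 without the cells that held another class's markers.

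BMP feedback genes were lower at later stages. Bambi, a pseudoreceptor that damps BMP signals, had 326, 86.9 and 15.0 CPM, with log2 ratios of −1.91 (−2.26 to −1.57) and −2.53 (−3.01 to −2.07). The inhibitor Smad7 had 112, 38.6 and 19.9 CPM. The target genes Id1 (275, 182 and 134 CPM), Id2 (204, 103 and 52.5 CPM) and Id3 (313, 227 and 200 CPM) were lower at each later stage by less than 2-fold. Bmp7 ran the other way with 21.7, 53.6 and 67.3 CPM. Of 10 BMP genes, 7 were measured in each pair: Bmp7 was higher and Bambi and Smad7 lower at E12.5 over E11.5 (median −0.60), and Bambi was lower at E13.5 over E12.5 (median −0.44). In the other cells the medians were −0.29 and −0.05.

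Of the ectodysplasin pathway, the adaptor Edaradd had 7.64, 44.8 and 24.5 CPM, in 5, 33 and 84 cells, with a log2 ratio of 2.55 (1.33 to 4.06) for E12.5 over E11.5. The receptor Edar had 0, 5 and 21 UMIs in all. Notch1 had 43.3, 85.2 and 192 CPM, with log2 ratios of 0.98 (0.40 to 1.58) and 1.17 (0.87 to 1.49), and its ligand Jag1 15.3, 20.2 and 50.7 CPM. Of the 830 Notch1 UMIs at E13.5, 36.9% were in the 6 Gabrp-high cells and 16.5% in the 16 Krtdap cells, and without the deepest cell of each library the gene was not past 2-fold. In the remaining cells its E13.5 over E12.5 ratio was 0.67 (0.26 to 1.10). Of 13 ectodysplasin and Notch genes, 5 were measured at E12.5 over E11.5 with Edaradd higher (median 0.57), and 6 at E13.5 over E12.5 with Notch1 and Jag1 higher (median 0.10).

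Among secreted signals, Cxcl14, a chemokine of the epidermis, had 2057, 3818 and 1847 CPM against 14.8, 97.7 and 115 CPM in the other cells. Pdgfa, which signals to the dermis, had 506, 788 and 462 CPM. Both were highest at E12.5. Igfbp2 and Igfbp5, which bind insulin-like growth factors, had 2771, 831 and 555 CPM and 1722, 1255 and 323 CPM. Igfbp2 was past 2-fold lower at E12.5 than at E11.5 (−1.74, −1.85 to −1.63) and Igfbp5 at E13.5 than at E12.5 (−1.96, −2.06 to −1.85). Fgfbp1, which releases FGFs from the matrix, had 0, 34.2 and 181 CPM, in 0, 18 and 176 cells, with a log2 ratio of 2.41 (1.94 to 2.91) for E13.5 over E12.5 and a nearly equal one, 2.42, in the remaining cells. The FGF receptor Fgfr2 had 157, 208 and 174 CPM and Egfr 16.6, 29.0 and 49.0 CPM. Kitl, the ligand that melanoblasts need, had 17.8, 50.04 and 31.5 CPM, and Vegfa 15.3, 30.7 and 13.4 CPM. Of 22 genes, 10 were measured in each pair: Kitl and Vegfa were higher and Igfbp2 lower at E12.5 over E11.5 (median 0.52), and Fgfbp1 was higher and Cxcl14, Igfbp5 and Vegfa lower at E13.5 over E12.5 (median −0.63). Vegfa was not past 2-fold at E12.5 over E11.5 without the deepest cells. Without the cells that held another class's markers, Kitl (0.72) and Vegfa (0.79) were not past 2-fold at E12.5 over E11.5, nor was Vegfa at E13.5 over E12.5 (−0.92).

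The S100 and annexin genes, calcium-binding proteins of epithelia, split by member. S100a11 had 2209, 2309 and 1974 CPM and S100a10 829, 795 and 837 CPM, within 2-fold throughout. S100a14 had 0, 21.1 and 68.5 CPM, in 0, 3 and 30 cells, and 73.0% of its 296 UMIs at E13.5 were in the 6 Gabrp-high cells and 21.3% in the 16 Krtdap cells. S100a16 had 15.3, 54.4 and 146 CPM and S100a6 135, 36.9 and 20.1 CPM. Of 11 genes, 8 were measured in each pair: S100a16 and Anxa1 were higher and S100a6 lower at E12.5 over E11.5 (median 0.15), and S100a14 and S100a16 were higher at E13.5 over E12.5 (median 0.21). Of the 103 Anxa1 UMIs at E12.5, 83 were in the 5 Gabrp-high cells, 40 of them in the deepest. In the remaining cells the Anxa1 ratio for E12.5 over E11.5 was 0.55 (−0.65 to 1.87), and with cells weighted equally Anxa1 was not past 2-fold. Of 11 cytoskeleton and stress genes, 3 were measured in each pair and none was past 2-fold (medians −0.57 and 0.44); Cd9 had 261, 270 and 490 CPM. Of 11 limb and regional genes, 3 were measured at E12.5 over E11.5 with Hoxc8, a gene of the thoracic level, higher and Msx2 and Tbx3 lower (median −1.64), and 1 at E13.5 over E12.5, Hoxc8 at 0.03. Hoxc8 had 20.4, 66.7 and 68.0 CPM, in 6 of 49, 30 of 76 and 128 of 248 cells.

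The 6 Pax1 cells at E12.5 met the rule but lacked most of the epidermal markers outside it. They held no UMI of Wnt6, Sostdc1 or Col17a1 and 1 UMI of Krt14 (10.8 CPM), where the 64 remaining cells had 493, 824, 84.9 and 1007 CPM. Of the rule's own genes, Trp63 was at 313 against 320 CPM and Epcam at 799 against 653 CPM, while Krt5 was at 324 against 676 CPM, Perp at 119 against 344 CPM and Krt15 at 0 against 1939 CPM. Krt8 had 1717 against 11.03 CPM and Krt18 2074 against 22.1 CPM. They also had Pax1 (680 CPM), the cytokine Il7 (518 CPM in 6 of 6 cells), the protease Prss16 (475 CPM), the class II gene H2-Ab1 (346 CPM) and the transcription factor Foxn1 (108 CPM in 4 cells), all with no UMI in the remaining cells. Foxn1, Prss16, Ccl25 and Il7 are known from thymic epithelium, and Pax1 from the pharyngeal pouches. Ccl25 had 918 against 18.8 CPM, but in 3 of the 6 cells. Stmn2 had 1188 against 5.51 CPM in 5 cells. The data go against the epidermal label for these cells. Without the cells that held another class's markers, Krt8 at E12.5 was 93.8 CPM in place of 224, Krt18 81.1 in place of 241, and Stmn2 4.89 in place of 101. Of 12 genes of other Trp63 or endodermal epithelia, Pax1 was the measured one in both pairs, at least 3.86 higher at E12.5 over E11.5 and at −6.32 at E13.5 over E12.5.

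Ranked by the interval bound nearest 0, the 10 genes farthest above 0 at E12.5 over E11.5 were Cxcl13, Pax1, Fst, Il7, Kcnip1, Stmn2, Fam241a, Pou3f1, Col17a1 and Ccl25. Pax1, Il7, Stmn2 and most of Ccl25 belong to the 6 Pax1 cells, Ccl25 at 0.62 in place of 3.01 without the cells of other classes, and all 110 Cxcl13 UMIs at E12.5 were in 1 cell. The others were spread over many cells. Fst (follistatin, an inhibitor of activin) had 1.27, 80.8 and 131 CPM, in 1, 29 and 158 cells, with a ratio at E12.5 over E11.5 of 5.99 (3.47 to 11.31) that rests on 1 UMI at E11.5. Kcnip1, a potassium channel partner, had 3.82, 84.3 and 50.7 CPM, in 3, 45 and 135 cells. Fam241a had 19.1, 167 and 120 CPM, in 12, 56 and 180 cells. Pou3f1, a POU factor known from epidermis and Schwann cells, had 25.5, 190 and 66.6 CPM in the epidermal cells and 122, 28.9 and 10.5 CPM in the others. The 10 farthest below 0 were Plac8, Hapln1, Tac2, Dlk1, Pmp22, Col2a1, Nrk, Msx2, Palm3 and Vstm2b. Hapln1, a link protein of hyaluronan matrix, had 154, 5.27 and 3.93 CPM, in 33 of 49, 5 of 76 and 4 of 248 cells, while the other cells had 3.30, 15.6 and 4.96 CPM. Col2a1, the collagen of cartilage, had 82.8, 7.02 and 22.7 CPM, in 31, 7 and 7 cells, and 1 cell held 90 of its 98 UMIs at E13.5. Plac8 (82.8, 0.878 and 0.925 CPM) came from 9 cells at E11.5.

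For E13.5 over E12.5 the 10 genes farthest above 0 were Krtdap, Dmkn, Dkk4, Lmo1, Fgfbp1, Myog, Fabp5, H1f5, H1f1 and Vav3. Lmo1, a LIM-only transcription cofactor, had 17.8, 36.0 and 327 CPM, in 7 of 49, 22 of 76 and 210 of 248 cells, with a log2 ratio of 3.18 (2.73 to 3.67) and −0.05 in the other cells. Fabp5, the epidermal fatty acid-binding protein, had 1116, 1134 and 4119 CPM, at 1.86 (1.78 to 1.94) against −0.19 in the other cells. Both were found in most epidermal cells of E13.5. Myog, a muscle factor, had 0, 6.15 and 48.1 CPM in 14 cells at E13.5, and without the cells with another class's markers its ratio was −1.38. The linker histone H1f5 had 189, 131 and 525 CPM in the epidermal cells and was also higher in the others, at 1.16. The 10 farthest below 0 were Il7, Pax1, Krt8, Krt18, Cxcl13, Stmn2, Upk3bl, Prss16, Ccl25 and Limch1. The 6 Pax1 cells at E12.5 held Pax1, Il7, most of Stmn2 and Ccl25, 62.4% of the Krt8 UMIs and 69.8% of those of Krt18. All Cxcl13 UMIs at E12.5 were in 1 cell. Without the cells of other classes Ccl25 was at −0.64 in place of −2.99 and Stmn2 at 0.18 in place of −4.18. In the remaining cells Krt8 was at −2.57 (−4.31 to −0.97) and Krt18 at −1.40 (−2.29 to −0.49). Limch1, an activator of myosin, had 71.3, 93.1 and 15.3 CPM, in 28, 24 and 40 cells. Upk3bl had 49.7, 49.2 and 2.31 CPM, in 24, 9 and 9 cells.

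Genes of the cell cycle were found in the epidermal cells at all 3 stages. Top2a, which acts in G2 and M phase, had 316, 227 and 359 CPM against 366, 217 and 237 CPM in the others, and Mki67 143, 130 and 136 CPM against 109, 79.2 and 99.9 CPM. Over the other cells of the same library, the median log2 ratio of 19 measured S phase genes was −0.37, 0.30 and 0.65 across E11.5, E12.5 and E13.5, with 4, 14 and 18 of them above 0 and 0, 1 and 3 past 2-fold higher. The 20 genes of G2 and M phase gave 0.08, 0.50 and 0.68, with 14, 20 and 20 above 0 and 0, 1 and 1 past 2-fold higher, beside medians over all genes of −0.01, 0.01 and 0.02. At E13.5 most cycle genes were thus higher in the epidermal cells than in the others, mostly by less than 2-fold. Between stages, of 20 S phase genes, 19 were measured and none was past 2-fold in either pair. Their median was −0.07 for E12.5 over E11.5, where the other cells had −0.69, and 0.37 for E13.5 over E12.5, with all 19 above 0, where the other cells had 0.28. All 20 G2 and M phase genes were measured and none was past 2-fold, with medians of −0.30 and 0.22 against −0.75 and 0.14 in the other cells. With median-of-ratios scaling the E13.5 over E12.5 values are higher by the shift given above. Thinned shares of cells with a Top2a UMI were 34.7%, 28.9% and 46.4% (38.8%, 36.8% and 68.5% before thinning), and 38.2%, 18.9% and 24.3% in the other cells.

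Genes of other cell types also differed between stages in the epidermal cells. The 5 mesenchymal class markers summed to 53.5, 82.5 and 269 CPM in the epidermal cells against 924, 2038 and 4903 CPM in the others. Of 10 dermal mesenchyme genes, 4 were measured at E12.5 over E11.5 with Dcn, Postn and Col3a1 higher (median 1.95; 1.81 in the other cells), and 5 at E13.5 over E12.5 with Col1a1, Col1a2, Col3a1 and Postn higher (median 1.46; 1.64). Dcn (decorin) had 24.2, 118 and 229 CPM, in 6 of 49, 39 of 76 and 197 of 248 cells, and 205 CPM at E13.5 without the cells that held another class's markers. Col1a1 at E13.5 had 116 CPM with those cells and 13.7 CPM without them, and Col3a1 118 and 29.2 CPM. Without them Col3a1 was not past 2-fold in either pair, at 0.55 and 0.51, nor was Col1a2 at E13.5 over E12.5 (−0.04). Dcn and Col1a1 did not keep the ratio they had elsewhere: Dcn UMIs per Col1a1 UMI at E13.5 were 1.98 in the epidermal cells, 0.307 in the other cells and 0.316 in droplets of 50 to 500 UMIs. Postn (periostin) gave 1.14, 0.167 and 0.237 in the same order and Lum (lumican) 0.182, 0.215 and 0.307. Thinned shares of cells with a Dcn UMI were 8.16%, 30.3% and 48.0%, against 0%, 2.05% and 19.9% in erythroid cells. The part of free RNA in these values was not tested further.

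Of 8 erythroid genes, 2 were measured at E12.5 over E11.5, both higher (median 1.63), and 6 at E13.5 over E12.5, all higher (median 4.69; −0.81 in the other cells). Hbb-bs had 2472 CPM at E13.5 with the cells of other classes and 96.7 CPM without them, and without them Hba-a2, Hba-x and Hbb-y were not past 2-fold at E13.5 over E12.5 (0.02, −0.48 and 0.20). Free RNA judged from haemoglobin was 1.54%, 1.43% and 1.68% of UMIs in the median epidermal cell, against 1.92%, 1.38% and 29.9% in their sum. Of 8 neural genes, 2 were measured in each pair, with Stmn2 higher at E12.5 over E11.5 (median 2.02) and Stmn2 and Tubb3 lower at E13.5 over E12.5 (median −3.03); without the cells of other classes Stmn2 was at −0.65 and 0.18. Of 8 mesothelial genes, 4 were measured in each pair, and these were Upk1b, Krt8, Krt18 and Krt19, which the epidermal cells use themselves. Upk1b was higher at E12.5 over E11.5 (list median −0.39), and the ratio of Upk1b was −1.10 without the deepest cells. All 4 were lower at E13.5 over E12.5 (median −3.06). Of 5 Merkel cell genes, 2 were measured at E12.5 over E11.5 with the mechanosensor Piezo2 lower (median −1.23; 38.2, 11.4 and 8.10 CPM) and none at E13.5 over E12.5. None of the 8 melanoblast, 8 immune and 8 endothelial genes was measured in either pair. The macrophage class markers summed to 0, 2.63 and 13.6 CPM and the endothelial ones to 1.27, 1.76 and 4.86 CPM in the epidermal cells.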

How the data were processed

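Embryo trunks were profiled as 3 libraries. Per the labels' protocols the tissue was dissociated with TrypLE and strained, and per the submitters' processing notes the reads were processed with Cell Ranger 8.0.1 against GRCm39. The deposited matrices hold raw UMI counts per gene and barcode, empty droplets included. From these counts, cells and epidermal cells were chosen by the limits given above, summed per library and divided by the total to give CPM. Intervals are exact (Poisson for levels, conditional binomial for ratios, Clopper-Pearson for shares) and cover counting error only. A gene was measured in a comparison with a mean of at least 20 CPM over both groups, and past 2-fold at a log2 ratio of 1 or more in size. A level of 0 was set at a floor of 3 UMIs over the group. Doublets were called with scrublet and kept, except in the alternative that left them out. The named genes were the 10 in each direction, or for epidermal against other cells the 15, whose interval bound lay farthest from 0, without haemoglobin, mitochondrial, ribosomal, Xist, Y-linked, predicted and rule genes and those lost on subtraction of free RNA. The 29 gene lists, the named sets and the cells themselves were chosen with earlier results of these data known. The calculations used Python 3.11.15 with numpy 2.4.6, scipy 1.17.1, pandas 2.3.3, scanpy 1.11.5 and matplotlib 3.10.9, and were tested on simulated counts. Other limits on cells, genes, scaling and free RNA were tried. Symbols that stood on more than 1 feature (26) were kept apart by gene ID. Results of a few genes are not reported here.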

Additional observations from a re-analysis of the deposited data

Results flagged for a closer look

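Among the named and listed genes, those with a mean of at least 5 CPM in the other cells were compared, and for 10 the ratio between stages was past 2-fold in opposite directions in the epidermal cells and in the other cells of the same libraries. With 1 library a stage the difference was not tested, and the values below are log2 ratios. For E12.5 over E11.5, 6 of these genes were lower in the epidermal cells and higher in the others. Hapln1 had −4.87 in the epidermal cells and 2.24 in the others, a difference of −7.11. Nrk had −3.44 and 1.69, a difference of −5.13, and Pmp22 −3.96 and 1.12, a difference of −5.09. Dlk1 had −3.09 and 1.37, a difference of −4.46, S100a6 −1.87 and 1.73, a difference of −3.60, and Piezo2 −1.74 and 1.56, a difference of −3.30. Pou3f1 ran the other way, at 2.90 in the epidermal cells and −2.07 in the others, a difference of 4.97.

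For E13.5 over E12.5, Sostdc1 had −1.78 in the epidermal cells and 1.24 in the others, a difference of −3.02. The embryonic globins Hbb-y (3.91 and −1.68, a difference of 5.59) and Hba-x (2.84 and −2.52, a difference of 5.36) were higher in the epidermal cells and lower in the others. The globin values rest on the cells that held erythroid markers: without the 19 epidermal cells with markers of another class the ratio of Hba-x was −0.48, and Hbb-y was no longer past 2-fold.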

How the results depend on the processing

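Counts of genes past 2-fold moved with the limit on low levels and with the cells left out. With at least 5 CPM they were 735 higher and 714 lower for E12.5 over E11.5, and 295 and 677 for E13.5 over E12.5. With at least 50 CPM they were 46 and 66, and 34 and 49. Without epidermal cells that held Krt1, Krt10, Krtdap or Sbsn UMIs, which left 9, 11 and 60 cells, they were 1035 and 726, and 445 and 968. For E13.5 over E12.5, a 5% mitochondrial maximum gave 128 higher and 237 lower, subtraction of free RNA scaled to summed haemoglobin gave 181 higher, and median-of-ratios scaling gave 121 higher. The epidermal share with at least 2 Trp63 UMIs was 0.570% at E11.5 and 2.73% at E13.5, and on thinned cells it was 0.459% and 2.00%.

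Signs turned in few cases, and the cause was not tested. Without the Krt1, Krt10, Krtdap or Sbsn cells, E12.5 over E11.5 gave −0.052 for Dcn and −0.052 for the dermal mesenchyme list and 0.80 for Ctnnal1, and E13.5 over E12.5 gave −0.023 for S100a16 and −1.40 for Hba-x. With free RNA scaled to summed haemoglobin, which stood for 29.9% of UMIs at E13.5, E13.5 over E12.5 gave −5.39 for Col3a1, −4.20 for Col1a1, −0.95 for Col1a2 and −3.83 for Hba-a2. Scaled to the median epidermal cell (1.68% at E13.5), a setting chosen after seeing the data, none of the named and listed genes turned sign. The next alternatives were chosen after seeing the data. Without cells with markers of another class, Stmn2 was −0.65 for E12.5 over E11.5 and 0.18 for E13.5 over E12.5, where Myog was −1.38, Col1a2 −0.043 and Hba-x −0.48. Upk1b at E12.5 over E11.5 was −1.10 without the deepest cell of each library and −2.74 without the Gabrp-high, Krtdap and Dkk4 cells. Leaving out these sets also gave 0.53 for Gabrp and −0.64 for the suprabasal list at E13.5 over E12.5. Both follow from leaving out cells chosen for Gabrp and Krtdap. Gabrp then rested on 3 UMIs at E12.5, and Krtdap and Dmkn fell under 20 CPM and out of the list. Of the named and listed genes past 2-fold, 62 of 62 kept their call under median-of-ratios scaling for E12.5 over E11.5, and 53 of 57 for E13.5 over E12.5 (lost: Gabrp, Cxcl14, Gjb2 and Cldn6). Without the Gabrp-high, Krtdap and Dkk4 cells 40 of 53 kept it for E13.5 over E12.5 (lost: Pkp1, Notch1, Jag1, S100a14, S100a16, Dkk4, Gabrp, Cldn7, Krt17, Cxcl14, Gjb2, Krt7 and Ppl). Dkk4 and Gabrp were bound to move there, since the cells left out were chosen for them. For E12.5 over E11.5, 61 of 62 kept the call without these cells (lost: Anxa1). No paired analysis was possible because each stage has 1 library. The depth of 49 cells at E11.5 limits genes near 20 CPM most, and litter, library, sex make-up and stage cannot be told apart.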
